A study of Homo sapiens with 4 samples.

Results

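The 9 features described here are entries of the deposited count table that lie over genes of transfer RNA (tRNA), out of 155642 features in the table. They were taken by identifier from a fixed list and lie over genes for Glu-TTC and Val-CAC, Lys-CTT, Pro-TGG, Gly-GCC, Arg-TCT and Val-TAC, Ser-TGA, Thr-TGT, Pro-AGG and Lys-TTT, where the letters after the amino acid are the anticodon. The annotation types all 9 as long non-coding RNA (lncRNA), so that they are named by the tRNA genes under them. The RNA came from small extracellular vesicles, particles enclosed by membrane and shed by cells. The cells were HT29, an established human colon cancer line that carries a mutant p53. In all, 4 libraries were made, 2 with a nontargeting shRNA in the source cells (control) and 2 with an shRNA to p53 (p53 shRNA), at passages 5 to 15. cDNA was size-selected to 18 to 40 nt. The labels do not say whether replicates were grown separately, so that p-values measure only how far these samples spread, which may be technical variation. The table annotates non-coding RNA alone, so markers of HT29 cells and the p53 transcript were not analysed here.

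tRNAs carry amino acids to the ribosome and read codons through their anticodon. Isoacceptors are tRNAs for the same amino acid with different anticodons, and isodecoders share the anticodon but differ elsewhere. Nucleases such as angiogenin cut tRNAs in stressed and in growing cells, often in the anticodon loop, and the resulting fragments are a common part of vesicle RNA. Since the selected size is below the length of a tRNA gene, any reads here from a tRNA are of fragments. Whether a read came from the tRNA gene or from the rest of its feature is not known. A fragment's level need not be that of the intact tRNA. In such bulk samples, fewer vesicles with a fragment and less of it per vesicle cannot be told apart.

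Gene sequence was at hand for both tRNA genes of the Glu-TTC/Val-CAC feature, from the GENCODE 29 transcript of AL592295.4 (GRCh38), and for Gly-GCC only from other copies of the gene. They are shown 5′ to 3′ because these features hold most of the counts described below, with the anticodon in capitals. The first is TRV-CAC1-1 at chr1:161399700-161399772, the second TRE-TTC4-2 at chr1:161422093-161422164, and the third TRG-GCC2-1 at chr1:161523847-161523917, which lies on an exon of FCGR2A. All 3 are on the minus strand, the strand on which the internal promoter motif of tRNA genes (B box) was found.
TRV-CAC1-1: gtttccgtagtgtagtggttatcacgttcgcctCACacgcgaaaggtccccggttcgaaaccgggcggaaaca
TRE-TTC4-2: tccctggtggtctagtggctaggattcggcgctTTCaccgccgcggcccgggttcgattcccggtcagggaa
TRG-GCC2-1: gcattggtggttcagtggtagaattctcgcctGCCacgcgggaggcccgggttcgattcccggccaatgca
The Glu-TTC and Gly-GCC genes were 72.2% identical by edit distance, Gly-GCC and Val-CAC 64.4%, and Glu-TTC and Val-CAC 57.5%. TRG-GCC2-1 and TRG-GCC2-4, on chromosome 16, were identical over their 71 bases, as were TRE-TTC4-1 and TRE-TTC4-2 over their 72. Genes with the same name up to the last number are by convention copies of 1 isodecoder. RefSeq lists 6 copies of TRG-GCC2, 7 of TRV-CAC1, 5 of TRK-CTT2, 5 of TRK-TTT3 and 8 of TRP-AGG2. Of these copies, 1 each, and 2 for TRP-AGG2, had bases that a single feature covers, and as many lay under a feature with counts. Reads of a multicopy tRNA can be placed at any copy, so these counts may hold only part of the reads of that tRNA and belong to an isodecoder rather than to 1 gene. TRP-TGG1, TRS-TGA1 and TRT-TGT2 are listed with 1 gene each.

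Positions are on GRCh38, with tRNA genes as RefSeq places them (GRCh38.p14). The Gly-GCC feature (URS00008B754C_9606) has 2 exons on chromosome 17 (8125526 to 8125839 and 8126292 to 8126544, minus strand), with TRG-GCC2-6 at 8125746 to 8125816. The Glu-TTC/Val-CAC feature (URS0000A7D90F_9606) is the lincRNA AL592295.4 of GENCODE 29, with 1 exon over each tRNA gene (chromosome 1, 161399409 to 161399912 and 161421932 to 161422424). It is annotated on the plus strand, opposite to both tRNA genes. The Lys-CTT feature (URS00009C3CE2_9606, chromosome 1, 146038859 to 146040567, minus strand) holds TRK-CTT2-1 at 146039401 to 146039473, and the Lys-TTT feature (URS0000D5A196_9606, chromosome 1, 204506521 to 204506769, plus strand) holds TRK-TTT3-1 at 204506527 to 204506599. TRP-TGG1-1 (20633006 to 20633077) fills most of the first exon of its feature (URS0000D571B6_9606, chromosome 14, 20633001 to 20633077 and 20633084 to 20633365, plus strand). TRP-AGG2-7 (3182635 to 3182706) lies in a feature of 2409 bases (URS0000D577AD_9606, chromosome 16, 3181046 to 3183454, minus strand), within an intron of the lincRNA AJ003147.1. TRT-TGT2-1 (222465005 to 222465077) lies in a feature on chromosome 1 (URS0000D5D99E_9606, 222464571 to 222465462, minus strand). The Arg-TCT/Val-TAC feature (URS00008BD7C0_9606, chromosome 11, 59550018 to 59551640, plus strand) covers TRV-TAC1-1 (59550629 to 59550701), TRV-TAC2-1 (59550987 to 59551059) and TRR-TCT3-2 (59551294 to 59551379). The Ser-TGA feature (URS00008B30B6_9606, chromosome 10, 67764545 to 67764626 and 67766297 to 67766435, minus strand) covers 40 of the 82 bases of TRS-TGA1-1 (67764503 to 67764584). Apart from AL592295.4 and AJ003147.1, and the lincRNA AL592295.3 on the other strand over TRE-TTC4-2, no GENCODE 29 gene overlaps the 12 tRNA genes.

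**Figure D1:**
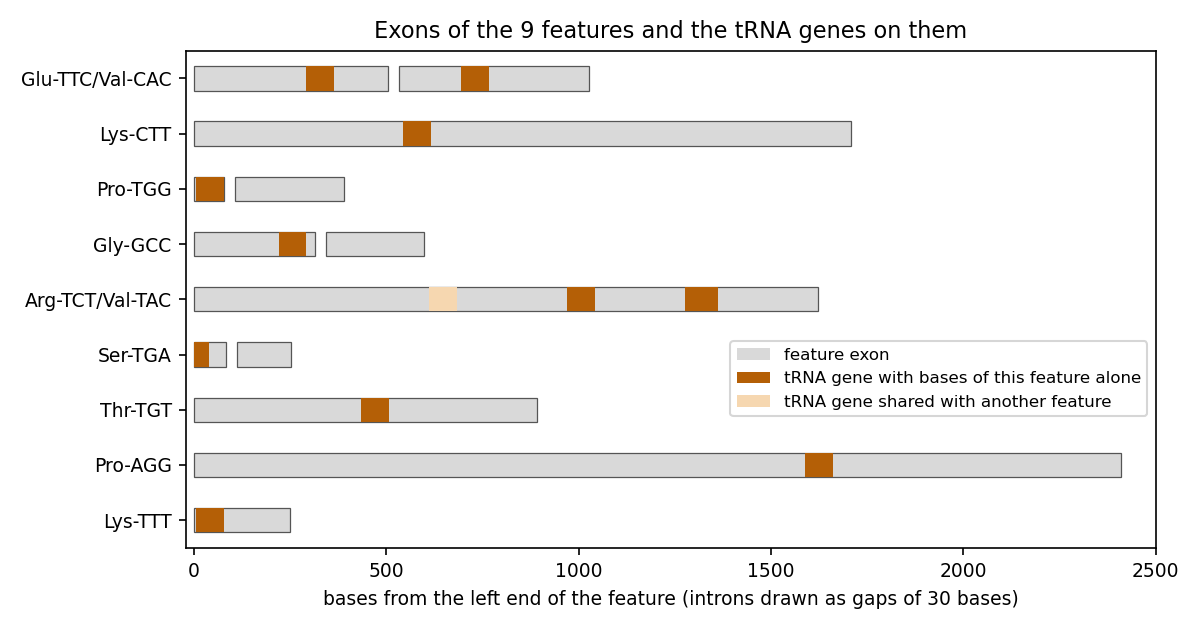
Map of the 9 features: grey boxes are exons, coloured boxes the tRNA genes on them, and the horizontal axis gives bases from the left end of the feature with introns drawn as short gaps. The tRNA genes take up a small part of most features, from 3.28% of the bases that the feature alone covers (Pro-AGG) to 37.9% (Arg-TCT/Val-TAC).

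The table does not say where on a feature its reads lay. Features with no base of their own (bases that no other feature covers, strand ignored) had 0 counts, for all 66527 of them in the table and all 73 over tRNA genes. Of 162 features over tRNA genes, 47 had bases of their own but none of them on the tRNA gene. These 47 had at most 19 counts over the 4 libraries together, with a median of 0 per feature. The 42 with bases of their own on a tRNA gene, which include the 9, had up to 4183 counts and a median of 101.5. These 42 also had more bases of their own, with a median of 568 against 206. Per kilobase of such bases the median was 160 counts against 0. In the Arg-TCT/Val-TAC feature, TRV-TAC1-1 has no base under this feature alone, while TRV-TAC2-1 had 71 bases and TRR-TCT3-2 had 72 of its 86 bases under this feature alone.

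Depth was 1099694 and 938754 counts for control replicates 1 and 2, and 2611032 and 1940942 for the p53 shRNA pair. Both p53 shRNA libraries were thus the deeper ones, and the part of depth in the results was not tested. The 9 features held 4580 and 4941 counts in control vesicles, against 2273 and 977 after p53 shRNA. As a share of all counts this was 0.416% and 0.526% in control vesicles, against 0.0871% and 0.0503% after p53 shRNA, 6.86 times less by the group means. The 95% Wilson intervals, which cover counting error only, were 0.405% to 0.429%, 0.512% to 0.541%, 0.0835% to 0.0907% and 0.0473% to 0.0536%. Each p53 shRNA library had a smaller share than each control, and replicate 2 was the lower of the pair.

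The list was made with these counts known. Of 27 tested features over tRNA genes, 23 are not over histidine genes, and the 9 are those with the 9 lowest log2 changes among the 23. That all 9 were lower with p53 shRNA was therefore fixed by the choice, and the differences between groups are given as a description without a test of the group. The last feature inside was Lys-TTT, with a log2 change of −1.66. The first outside was the feature over TRA-AGC2-1 (Ala-AGC), with −1.30 and counts of 73 and 60 in control vesicles, against 143 and 39 after p53 shRNA. Log2 changes are p53 shRNA minus control, from edgeR's quasi-likelihood fit over 2780 features, and expression is given as CPM, the counts of a feature relative to its library after TMM scaling, which takes most features as the common level. The SE given is for the gap between the mean log2 CPM of the groups.

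Glycine, glutamate, valine and lysine tRNA genes lay under the 3 most counted of the 9. The Gly-GCC feature had 1478 and 1560 counts in control vesicles, against 796 and 349 after p53 shRNA. Its CPM was 2180 and 1545 against 284 and 150, a log2 change of −3.10 (SE 0.52). Both p53 shRNA libraries were low, in counts as well as in CPM, although they were the deeper ones.

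The Glu-TTC/Val-CAC feature, whose counts cannot be divided between its 2 tRNA genes, had 1166 and 1746 counts in control vesicles, against 469 and 181 after p53 shRNA. In CPM the values were 1720 and 1729 against 168 and 77.6, a log2 change of −3.81 (SE 0.55). The near equality of the controls came with the TMM scaling, since as CPM on library totals they were 1060 and 1860. Control replicate 1 had the lowest TMM factor, 0.637 against 1.12 to 1.25 in the other libraries.

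The Lys-CTT feature had 1274 and 949 counts in control vesicles, against 334 and 182 after p53 shRNA, and CPM of 1879 and 940 against 119 and 78.0 (log2 change −3.84, SE 0.58). Here the controls were closer before TMM scaling, with CPM on library totals of 1159 and 1011. The groups did not overlap on either scale.

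The other lysine isoacceptor, Lys-TTT, had 155 and 196 counts in control vesicles, against 231 and 120 after p53 shRNA. Its counts thus overlapped between groups, while its CPM did not, at 229 and 194 against 82.5 and 51.5 (log2 change −1.66, SE 0.35). Within each library the ratio of Lys-CTT to Lys-TTT counts, which needs no scaling, was 8.22 and 4.84 in control vesicles, against 1.45 and 1.52 after p53 shRNA. The ratio was lower in both p53 shRNA libraries, which shows unequal change and not which isoacceptor was the more abundant. Per kilobase of bases that each feature alone covers, Lys-CTT stood at 678 and 592 CPM on library totals in the controls and Lys-TTT at 566 and 839, with overlapping values. After p53 shRNA they were 74.9 and 54.9 for Lys-CTT and 355 and 248 for Lys-TTT, so that per kilobase Lys-TTT was then the higher one in both libraries. This order rests on feature lengths of 1709 and 249 bases. Both features hold 73 bases of a tRNA gene, and Lys-CTT had more counts than Lys-TTT in all 4 libraries. Which isoacceptor was the more abundant is thus not settled.

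Of the proline isoacceptors, Pro-TGG had 109 and 82 counts in control vesicles, against 57 and 20 after p53 shRNA, with CPM of 161 and 81.2 against 20.4 and 8.58 (log2 change −3.05, SE 0.75). Pro-AGG had 199 and 99 counts in control vesicles, against 221 and 36 after p53 shRNA. Its CPM was 294 and 98.1 against 79.0 and 15.4, and its log2 change of −2.05 had the largest SE of the 9, 1.38. p53 shRNA replicate 1 lay close to control replicate 2 in Pro-AGG, and the ratio of Pro-TGG to Pro-AGG overlapped between groups, at 0.548 and 0.828 against 0.258 and 0.556.

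Arg-TCT/Val-TAC followed Pro-TGG closely. It had 101 and 87 counts in control vesicles, against 57 and 21 after p53 shRNA. Its CPM was 149 and 86.2 against 20.4 and 9.0, a log2 change of −2.99 (SE 0.67). The ratio of Pro-TGG to Arg-TCT/Val-TAC counts was 1.08, 0.943, 1.0 and 0.952 in the 4 libraries. The 2 features lie on different chromosomes and over tRNAs for different amino acids. Their ratios to Gly-GCC also overlapped between groups, at 0.0737 and 0.0526 against 0.0716 and 0.0573 for Pro-TGG, and 0.0683 and 0.0558 against 0.0716 and 0.0602 for Arg-TCT/Val-TAC.

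Ser-TGA had 65 and 189 counts in control vesicles, against 81 and 37 after p53 shRNA, and its CPM was 95.9 and 187 against 28.9 and 15.9 (log2 change −2.66, SE 0.63). Control replicate 1 had fewer counts than p53 shRNA replicate 1, so that the groups overlapped in counts but not in CPM. Thr-TGT, the feature with the fewest counts, had 33 in each control and 27 and 31 with p53 shRNA. Its CPM was 48.7 and 32.7 against 9.65 and 13.3 (log2 change −1.82, SE 0.35), and it was the 1 feature of the 9 in which p53 shRNA replicate 2 lay above replicate 1.

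**Figure D2:**
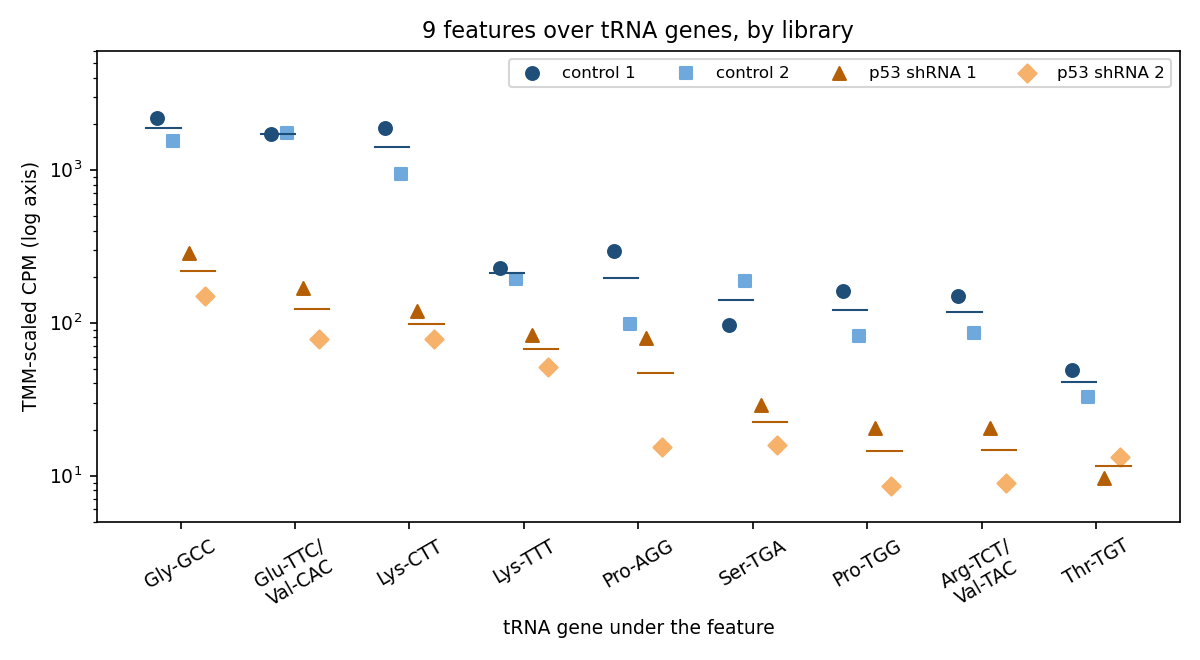
TMM-scaled CPM (log axis) of the 9 features in each of the 4 libraries, with horizontal lines at the group means. Each p53 shRNA value lies below both control values of its feature, and the distance between groups is smallest for Pro-AGG, where 79.0 with p53 shRNA replicate 1 comes near 98.1 in control replicate 2.

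In CPM the groups did not overlap for 9 of 9, where 18.6% of the 2780 tested features were lower without overlap. In counts before any scaling, 6 of 9 were lower in both deeper p53 shRNA libraries, where 6.69% of tested features were. At an unadjusted p under 0.05, 6 of 9 were lower, against a background of 7.81%. At an adjusted p of 0.05, 0 of 9 passed, and 0% of all features did in either direction. The adjusted p of the 9 ran from 0.187 to 0.625 in edgeR's quasi-likelihood test. The list was chosen on this contrast, so nothing is read from these counts. The median log2 change of the 9 was −2.99, that of all features tested 0.05. The median log2 change of the 9 was −2.71 and −3.22 without control replicates 1 and 2, and −3.51 and −2.25 without p53 shRNA replicates 1 and 2. Pro-AGG depended most on single libraries. Its log2 change was −3.49 when p53 shRNA replicate 1 was left out. Leaving out p53 shRNA replicate 2 gave −1.0, and leaving out control replicate 1 gave −1.24.

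Of the other tested features over tRNA genes, the 4 over copies of the histidine gene TRH-GTG1 had log2 changes of −3.48 to −3.34. The counts on these 4 features, which lie over copies of 1 isodecoder, differed at most 1.31 to 1.65 times from each other within a library. The ratio of counts on the 9 to counts on these 4 was 1.25 and 1.79 in control vesicles, against 1.45 and 2.01 after p53 shRNA, with overlapping groups. The remaining 14 tested features had a median log2 change of −0.51, and 11 were below 0 and 3 above. The highest was over TRX-CAT1-8, a gene of the initiator methionine tRNA, with 68 and 36 counts in control vesicles, 344 and 513 after p53 shRNA and a log2 change of 1.34. A feature over the isoleucine gene TRI-TAT2-1 had 114 and 35 counts in control vesicles, against 409 and 376 after p53 shRNA (log2 change 0.60, SE 1.12). Its TMM-scaled CPM overlapped between groups, at 168 and 34.7 against 146 and 161. On library totals its CPM did not overlap, at 104 and 37.3 against 157 and 194. Features over tRNA genes outside the 9 and histidine held 0.0473% and 0.0300% of counts in control vesicles, against 0.0640% and 0.0641% after p53 shRNA. The features over TRX-CAT1-8 and TRI-TAT2-1 carried this difference. Without them, a choice made after their values were seen, the shares were 0.0307% and 0.0225% against 0.0352% and 0.0183%, and the groups overlapped. Over all 162 features the share was 0.796% and 0.851% against 0.211% and 0.139%. The 9 and the histidine features held most of these counts, so this share is a description and no test of it is given.

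**Figure D3:**
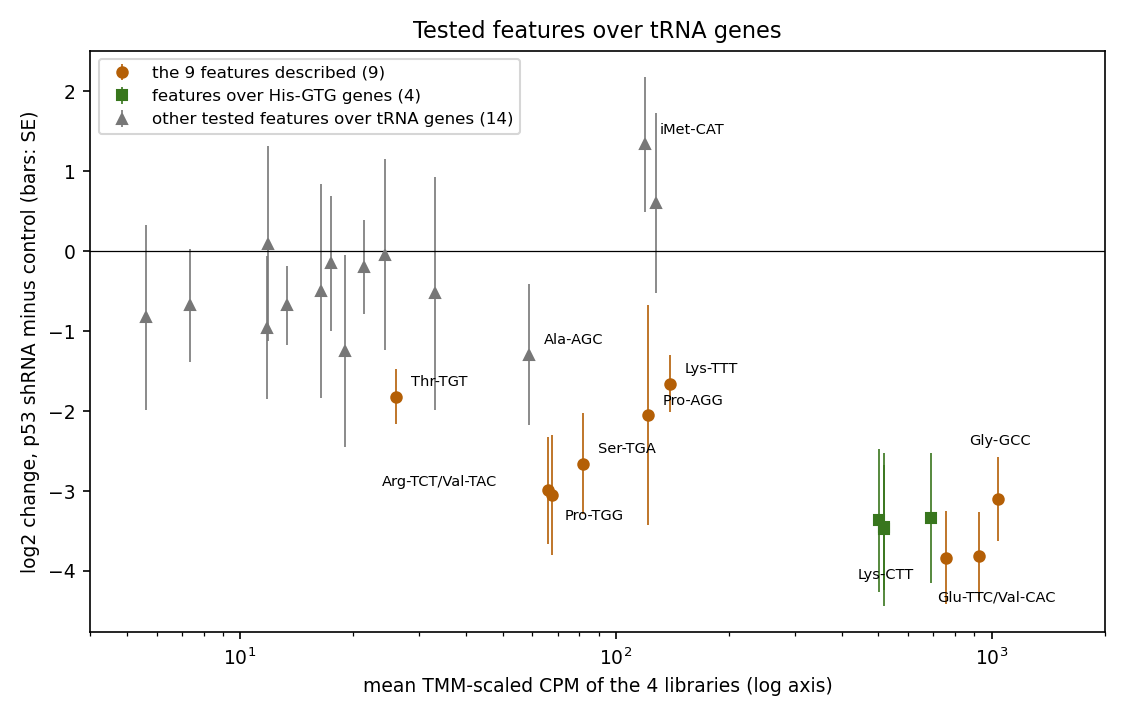
Log2 change (p53 shRNA minus control, bars show the SE) against the mean CPM of the 4 libraries (log axis) for the 27 tested features over tRNA genes. The 9 described lie between −3.84 and −1.66, the 4 over histidine genes between −3.48 and −3.34, and the 14 others between −1.30 and 1.34.

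For the amino acids of the 9, 66 other features lay over their tRNA genes. Many of the 66 had no base of their own, and such features had 0 counts. Few had bases of their own on the tRNA gene. Low counts on them thus do not show that these tRNAs were scarce. Of the 66, 19 had any count, with 498 counts in all libraries together against 12771 on the 9, and 2 were tested. These were over TRS-GCT4-1 (Ser-GCT, 45 and 12 counts in control vesicles, against 117 and 28 after p53 shRNA, log2 change −0.53) and TRT-CGT3-1 (Thr-CGT, 6 and 14 against 9 and 50, log2 change 0.09). The serine isoacceptors in the table thus had log2 changes of −2.66 (Ser-TGA) against −0.53 (SE 1.46). The threonine ones had −1.82 (Thr-TGT) against 0.09 (SE 1.22). That Ser-TGA and Thr-TGT were the lower ones was fixed by the choice of the 9 lowest changes. The differences within these pairs were not tested. A second feature over a TRP-AGG2 copy, TRP-AGG2-1, has 25 bases of the tRNA gene and had 7 and 2 counts in control vesicles, against 16 and 1 after p53 shRNA.

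The share of each feature in the counts of the 9 shows how these counts divided among the features in each library, without correction for length. Gly-GCC took 32.3% and 31.6% in control vesicles, against 35.0% and 35.7% after p53 shRNA. Glu-TTC/Val-CAC took 25.5% and 35.3% against 20.6% and 18.5%, and Lys-CTT 27.8% and 19.2% against 14.7% and 18.6%. The 3 together held 85.5% and 86.1% of the counts of the 9 in the controls, against 70.3% and 72.9%. Lys-TTT made up 3.38% and 3.97% in control vesicles, against 10.2% and 12.3% after p53 shRNA, and Thr-TGT 0.721% and 0.668% against 1.19% and 3.17%. Pro-AGG took 4.34% and 2.0% against 9.72% and 3.68%, with overlapping groups.

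**Figure D4:**
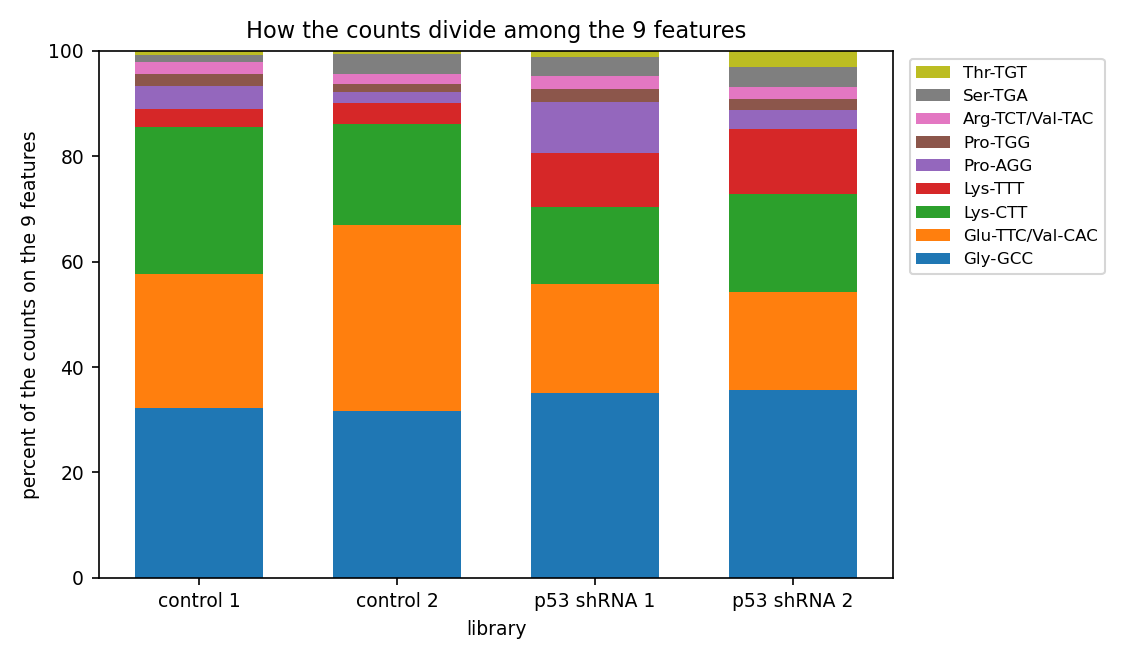
Percent of the counts on the 9 features that each takes, by library. The Gly-GCC share is similar in the 4 libraries (31.6% to 35.7%), while Lys-TTT takes 3.38% and 3.97% in control vesicles, against 10.2% and 12.3% after p53 shRNA.

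Levels can be compared between features only per length, here as CPM on library totals per kilobase of bases that the feature alone covers. In the controls the order was Gly-GCC (2651 ± 396, SD, n = 2), Glu-TTC/Val-CAC (1464 ± 567), Lys-TTT (702 ± 193), Lys-CTT (635 ± 61.1), Ser-TGA (589 ± 455), Pro-TGG (260 ± 23.2), Arg-TCT/Val-TAC (245 ± 1.56), Pro-AGG (65.2 ± 24.3) and Thr-TGT (43.5 ± 4.86). From Lys-TTT down to Arg-TCT/Val-TAC, neighbours in this order did not differ beyond their SD. By its SD, Ser-TGA could not be set apart from Glu-TTC/Val-CAC, Lys-TTT, Lys-CTT, Pro-TGG or Arg-TCT/Val-TAC. Pro-AGG and Thr-TGT did not differ beyond their SD either. The SD is between libraries and leaves out that features share a library. Within each control, Ser-TGA (267 and 911) was below Glu-TTC/Val-CAC (1063 and 1866) and above Arg-TCT/Val-TAC (244 and 246). Pro-AGG was likewise above Thr-TGT (82.4 and 48.0 against 40.1 and 46.9). With p53 shRNA Gly-GCC had the highest mean (427 ± 156, SD, n = 2), then Lys-TTT (302 ± 75.7), Glu-TTC/Val-CAC (137 ± 61.3) and Ser-TGA (113 ± 38.3), with Lys-CTT next at 64.9 ± 14.1. Gly-GCC and Lys-TTT did not differ beyond their SD there, nor did Glu-TTC/Val-CAC and Ser-TGA, Glu-TTC/Val-CAC and Lys-CTT, or Ser-TGA and Lys-CTT. Within each p53 shRNA library, however, the first of each pair was the higher. Gly-GCC stood at 538 and 317 against 355 and 248 for Lys-TTT. Glu-TTC/Val-CAC stood at 180 and 93.5, Ser-TGA at 140 and 86.3 and Lys-CTT at 74.9 and 54.9. Below them came Pro-TGG (44.8 ± 22.7), Arg-TCT/Val-TAC (43.3 ± 20.7), Pro-AGG (23.5 ± 21.3) and Thr-TGT (17.6 ± 5.32), again with neighbours within their SD. Within each p53 shRNA library Arg-TCT/Val-TAC was above Pro-AGG (57.9 and 28.7 against 38.5 and 8.45). Pro-AGG and Thr-TGT (13.8 and 21.3) changed order between the libraries. Such levels depend on the length of the lncRNA around the tRNA gene, which is 1709 bases for Lys-CTT and 249 for Lys-TTT. By total counts per kilobase of such bases, the 9 lay between the 98.6th and 99.9th percentile of the 89115 features that have them. These include features with 0 counts, since 46090 features in the table had any count. The 9 were also listed with their counts known, so high percentiles were partly built in.

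**Figure D5:**
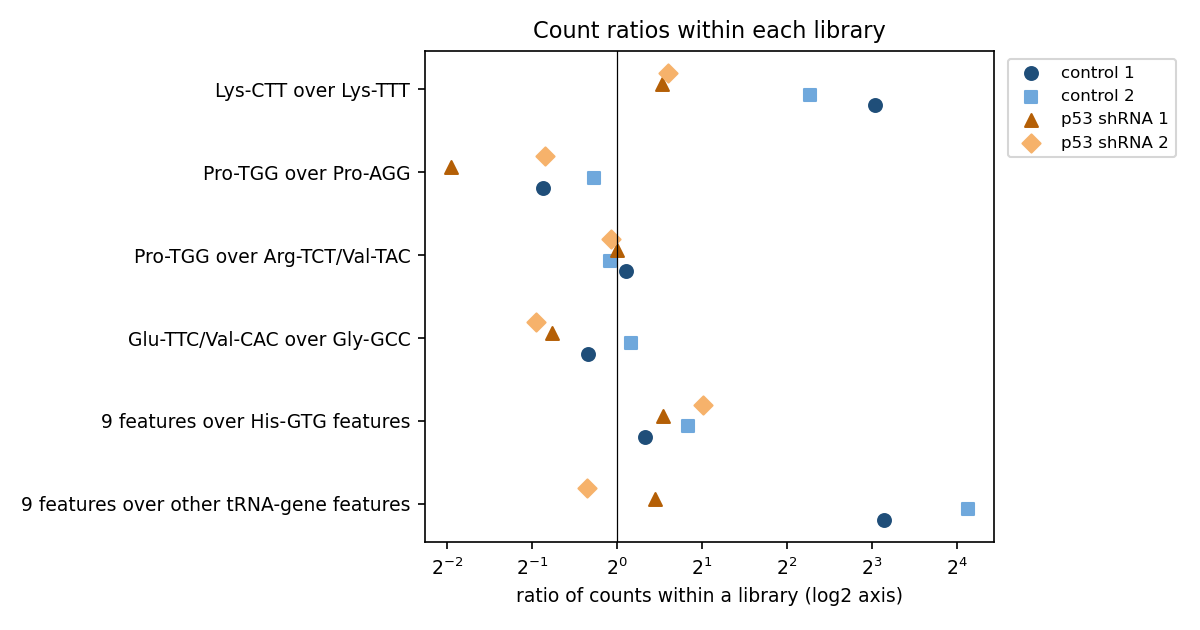
Ratios of counts within each library (log2 axis), 1 marker per library. Lys-CTT over Lys-TTT is 4.84 or more in the controls and at most 1.52 with p53 shRNA, whereas Pro-TGG over Arg-TCT/Val-TAC stays between 0.943 and 1.08 in the 4 libraries.

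Of 1458 tested features outside tRNA genes with a gene name by position, the 5 with the pattern closest to the median pattern of the 9 over the 4 libraries differed from it by 0.0927 to 0.184 (root mean square of centred log2 CPM). In order of closeness they were a Y RNA copy (gene name RF00019; 19 and 16 counts in control vesicles, 7 and 2 after p53 shRNA), a feature typed snoRNA on RPL32 (333 and 334 against 234 and 81), RNY3 (129 and 118 against 61 and 26), a lncRNA feature on TRIM69 (9 and 9 against 2 and 0) and a second Y RNA copy (45 and 47 against 35 and 11). Among the 9 this difference from their median pattern was 0.00844 for Arg-TCT/Val-TAC, 0.0725 for Pro-TGG and 0.151 for Gly-GCC, and up to 0.825 for Thr-TGT. The median pattern was made from the 9 themselves, so a small difference of a middle member such as Arg-TCT/Val-TAC is built in. These differences cannot be compared with those of the features outside tRNA genes. Closeness over 4 libraries is a description of these libraries.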

How the data were processed

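Small RNA of vesicles was measured in 4 libraries, 2 control and 2 p53 shRNA. The deposited values are raw counts per feature, features being named by RNAcentral identifiers. The tools were BWA 0.7.17, Subread 1.6.3 and bcl2fastq 2.19, with the build GRCh38, according to the submitters' processing notes. The settings of the counting and the handling of reads with several positions are not given in the sources used here. The authors' table also gives other columns of exon positions and length, used as annotation. Features were set against 439 RefSeq tRNA genes of chromosomes 1 to 22 (GRCh38.p14) with bedtools 2.31.1, by at least 1 base. The deposited counts were tested with edgeR 4.0.16 (quasi-likelihood test, TMM, edgeR's filter on low counts). Adjustment was by Benjamini-Hochberg over 2780 features, and log2 CPM used a prior count of 2. The test was also run on simulated counts, and the outcome of that run is not given here. All 9 members passed the filter on low counts. Members and lists were chosen with earlier results of these data known. All members are named, with the features over tRNA genes as their comparison and the 5 features outside tRNA genes with the most alike pattern. GENCODE 29 exons over at least 50% of a feature's length named it. Alternatives were DESeq2 1.42.0, limma 3.58.1 voom, other scalings and filters, a replicate block and each library left out. The exact permutation tests planned for the share of the 9 and of all features over tRNA genes are not printed, as the choice fixed the direction of the first and the 9 and histidine features make up most of the second.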

Additional observations from a re-analysis of the deposited data

How the results depend on the processing

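All 108 log2 changes of the 9 features under the 12 alternatives were below 0. The alternatives use the same libraries on which the 9 were chosen as the lowest changes, so this shared sign was largely fixed by the choice. No feature in the table passed an adjusted p of 0.05 in edgeR's test, at an unadjusted p under 0.05 there were 217 lower and 121 higher ones, and limma voom called 0. The DESeq2 Wald test called 29 of 2780 features (1.04%), all lower. edgeR without features over rRNA genes called 20 of 3007 (19 lower and 1 higher). Wald called 2 of the 9, Glu-TTC/Val-CAC and Lys-CTT (adjusted p = 0.0249 and 0.0249). With the replicate number as a block in edgeR's test, 103 of 2780 features were called (91 lower and 12 higher). They included 2 of the 9, the same features (adjusted p = 0.0273 and 0.0391). The 9 were chosen on this contrast, so nothing is read from these calls. Nothing in the labels says that the numbers pair libraries, and same-numbered deviations correlated at 0.395 with 2 pairs only. The cause of these differences was not tested. Scaling by library totals raised the median log2 change of all features from 0.05 to 0.49 and that of the 9 from −2.99 to −2.47, and no filter on low counts gave 1.38 and −2.13. The log2 ratio of the share of the 9 ranged from −3.23 to −2.44 with single libraries removed, and that of all features over tRNA genes from −2.56 to −1.96. With full exon length, 2 of the 9, Arg-TCT/Val-TAC and Pro-AGG, changed rank in the controls. Thr-TGT had the fewest counts of the 9, 124 in all.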
